A study of Mus musculus with 208 samples.

Results

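The cytosolic ribosomal protein genes encode the proteins of the ribosome that translates the messages of the nucleus. They were chosen by name: every gene whose symbol begins with Rpl or Rps, goes on with a number and ends with at most 1 further letter, together with Rplp0, Rplp1, Rplp2 and Rpsa. The rule found 81 genes among the 46403 genes of each count table, 49 of the large subunit and 32 of the small subunit. Since the rule goes by symbol, they include Rps4l, which GENCODE M21 annotates as a transcribed processed pseudogene with no coding sequence, while the others are annotated as protein-coding. A gene was tested in a region only where its total count over the libraries of that region was above 10. This left 79 of the 81 in the hypothalamus, of 28859 genes tested there, and 74 in each of the hippocampus (of 22076), the prefrontal cortex (PFC, of 21729) and the striatum (of 23426).

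A mammalian ribosome joins a large and a small subunit, each built from ribosomal RNA and from a set of proteins that are needed in about equal numbers. Proteins of the small subunit read the message, those of the large subunit surround the site where amino acids are joined, and the stalk proteins of the large subunit, Rplp0, Rplp1 and Rplp2, recruit elongation factors. The messages of most of these genes start with a run of pyrimidines, the 5' terminal oligopyrimidine (TOP) motif, through which the kinase mTOR controls their translation. In neurons the same messages are also carried into dendrites and axons. Nuclear RNA holds transcripts that are newly made or not yet exported, so a level in it is not a level of ribosomes.

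Wild type C57BL/6NTac mice of both sexes were exposed to morphine through the dam, which carried a minipump releasing 10 mg/kg per day or saline, and then by 2 daily injections of 10 mg/kg or saline from postnatal day 1 to 14, while raised by drug-naive foster dams. As adults they received LPS, a bacterial endotoxin, at 2 mg/kg or saline, and tissue was taken 2 hours later. The groups are named by exposure and then challenge. SAL-SAL and SAL-LPS mice had saline in early life, and MOR-SAL and MOR-LPS mice had morphine. Each of the 208 libraries held the nuclear RNA of about 5000 nuclei positive for NeuN, a neuronal nuclear protein, from tissue punches of 1 region. Libraries are named here by their replicate label, such as 10-1, and the 71 labels, each with the same condition and sex wherever it recurs, were read as animals. The labels do not say what the first number of a replicate label stands for. It takes 18 values, each found under 1 exposure only and all but number 3 under 1 sex. It was not taken as the litter, since the count of litters in the methods differs. The hypothalamus had 11 libraries of SAL-SAL and 14 of MOR-SAL mice, and 12 of SAL-LPS and 14 of MOR-LPS mice. In the same order of groups there were 13, 12, 14 and 16 for the hippocampus, 10, 12, 10 and 16 for PFC, and 13, 8, 15 and 18 for striatum. Exposure was assigned to dams, so each litter lies within 1 exposure, as each first number does. Differences between litters or numbers can therefore enter an exposure contrast and cannot be removed there by blocking. In bulk RNA, fewer cells of a type and less RNA per cell cannot be told apart.

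Total counts ran from 7673 to 35077048 in the hypothalamus, 227025 to 24071488 in the hippocampus, 5954700 to 92945090 in the striatum and 3056648 to 21988203 in PFC. The 81 genes together took a small share of them, with a median of 0.159% per library in the hypothalamus, 0.102% in the hippocampus, 0.0671% in the striatum and 0.166% in PFC. The hypothalamus table differed from the others in which genes had counts, for a reason that was not tested. Outside it, 7135 genes stood at 0 in every library although they had counts above 10 in the hypothalamus, among them 4 of the 81 (Rpl13, Rpl35, Rpl35a and the pseudogene Rps4l) and the marker genes Nefl, Gfap and P2ry12. Libraries of several groups nearly lacked the markers of their labelled region. For PFC and hippocampus these were the same list, the cortex and hippocampus excitatory markers, which cannot tell those regions apart. The summed marker level was under 10% of the median of the region in 11 of 51 hypothalamic libraries (3 of SAL-SAL, 1 of MOR-SAL, 3 of SAL-LPS and 4 of MOR-LPS), with 3 of them at 0, in 9 of 48 for PFC (2, 3, 2 and 2) and in 5 of 54 for striatum (2, 0, 1 and 2), but in 0 of 55 for hippocampus. Among the hypothalamic libraries, SAL-SAL 10-1 and 10-3 also had thalamus markers at 20.4 and 12.6 times the median of the region. Their sums were 2717 and 1685 normalized CPM, and these markers were high in other regions too. PFC library 5-1 had 5608 at 3.07 times the median of its region, and striatal 1-2 had 4799 at 1.40 times. The striatum markers had a median sum of 353 normalized CPM in the PFC and 400.2 in the striatum.

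The start of each gene, where the TOP motif would lie, was read from RefSeq promoters of GRCm38.p6, which held 60 of the 81 genes. A C at the annotated start followed by at least 4 more pyrimidines was present in 13 of the 60 (21.7%), against 3.01% of all 27025 genes in the table. A run of 8 or more pyrimidines anywhere within 15 bases of the start was present in 43.3% of the members and 13.9% of all genes. On either strand of the 300-base promoters, CCGGAAG, the core letters bound by ETS factors, occurred in 41.7% of members and 9.93% of all genes. The GC box GGGCGG occurred in 60% and 38.2%. A match is a description of the letters and not of binding. The 15 bases on each side of the start are shown for members named in the comparisons below, with the pyrimidine run from the start site in capitals, because the annotated start itself differs among them: Rps15a and Rps6 begin with such a run and Rplp0 does not. Starts with a run are more frequent among those shown than among the 60. Rpl3 and Rplp1 are not in the table.
Rps15a (chr7:118116133-118116162, minus strand): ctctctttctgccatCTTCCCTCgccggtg
Rps6 (chr4:86857353-86857382, minus strand): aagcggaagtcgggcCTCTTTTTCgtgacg
Rps10 (chr17:27635230-27635259, minus strand): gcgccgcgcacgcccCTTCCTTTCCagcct
Rpl15 (chr14:18270972-18271001, minus strand): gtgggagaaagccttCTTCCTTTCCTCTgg
Rpl38 (chr11:114668565-114668594, plus strand): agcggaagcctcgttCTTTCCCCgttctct
Rplp0 (chr5:115559452-115559481, plus strand): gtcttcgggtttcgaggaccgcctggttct
Rpsa (chr9:120127751-120127780, plus strand): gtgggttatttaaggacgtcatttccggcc
Rpl5 (chr5:107900513-107900542, plus strand): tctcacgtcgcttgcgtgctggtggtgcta
Rps15 (chr10:80292416-80292445, plus strand): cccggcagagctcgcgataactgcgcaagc

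The genes are short and much copied. Their median exon length in GENCODE M21 was 1739 bp, of which a median of 462 bp was coding. Of the 81, 29 hold snoRNA genes, 56 in all, inside their span, 27 share exonic bases with a gene on the same strand and 18 with a gene on the opposite strand. For 75 of them another annotated gene had a transcript at least 90% identical over at least 50% of the coding sequence of the member, with a median of 9 such copies per gene and a highest number of 85. Reads of a member can therefore be lost to it or be counted for a copy. Annotated ribosomal protein pseudogenes took a median of 6.79% of the summed level of genes and pseudogenes in the hypothalamus, and 1.53%, 1.45% and 1.64% in the hippocampus, PFC and striatum.

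Levels between genes were compared as normalized CPM (counts scaled to a common library size after TMM normalization) per kilobase, in SAL-SAL libraries, and the order depended on which length was used. Per kilobase of exon, Rpl4 was highest in the hypothalamus at 40.3 ± 17.7 (SD, n = 11) and in the hippocampus at 33.9 ± 18.1 (SD, n = 13). Rplp1, a stalk protein gene, was highest in the PFC at 103 ± 122 (SD, n = 10) and in the striatum at 30.2 ± 27.5 (SD, n = 13). The PFC value depended on SAL-SAL 5-1, one of the 9 PFC libraries that nearly lacked cortical excitatory markers, with 1.76% mitochondrial counts. Without it Rplp1 was still highest there per kilobase of exon, at 67.0 ± 45.7 (SD, n = 9), Rps2 left the 10 highest genes, and the 5 highest held 27.6% of the summed level. Per kilobase of coding sequence, Rpl41, the gene of the smallest ribosomal protein, was highest in every region, at 127 in the hypothalamus, 149 in the hippocampus, 221 in the striatum and 523 in PFC. On that scale Rpl4 ranked 6, 3, 11 and 14 in these regions and Rplp1 ranked 57, 28, 16 and 2.

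Rpl3, which encodes a protein close to the peptidyl transferase centre, ranked 2 in the hypothalamus on both scales, at 38.6 ± 14.3 per kilobase of exon. Among the 10 highest genes of every region were Rpl36, Rpl4, Rpl8, Rps15 and Rps2 per kilobase of exon, but Rpl13a and Rpl41 per kilobase of coding sequence, so no gene was in this set on both scales. In the PFC, Rplp1, Rps15, Rpl36 and Rpl41 led per kilobase of exon at 103, 78.7, 71.0 and 61.8, and they ranked 2, 4, 6 and 1 per kilobase of coding sequence. Per kilobase of exon the 5 highest genes held 30.5% of the summed level there, against 18.6% to 20.7% in the other regions. Neighbours among the 5 highest genes of a region did not differ beyond their spread over libraries, except that Rpl3 exceeded Rpl8 (24.2 ± 14.3) in the hypothalamus by slightly more than the SD of either. The median over the 81 genes per kilobase of exon was 6.76 in the hypothalamus, 6.88 in the hippocampus, 7.71 in the striatum and 8.72 in PFC.

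**Figure D1:**
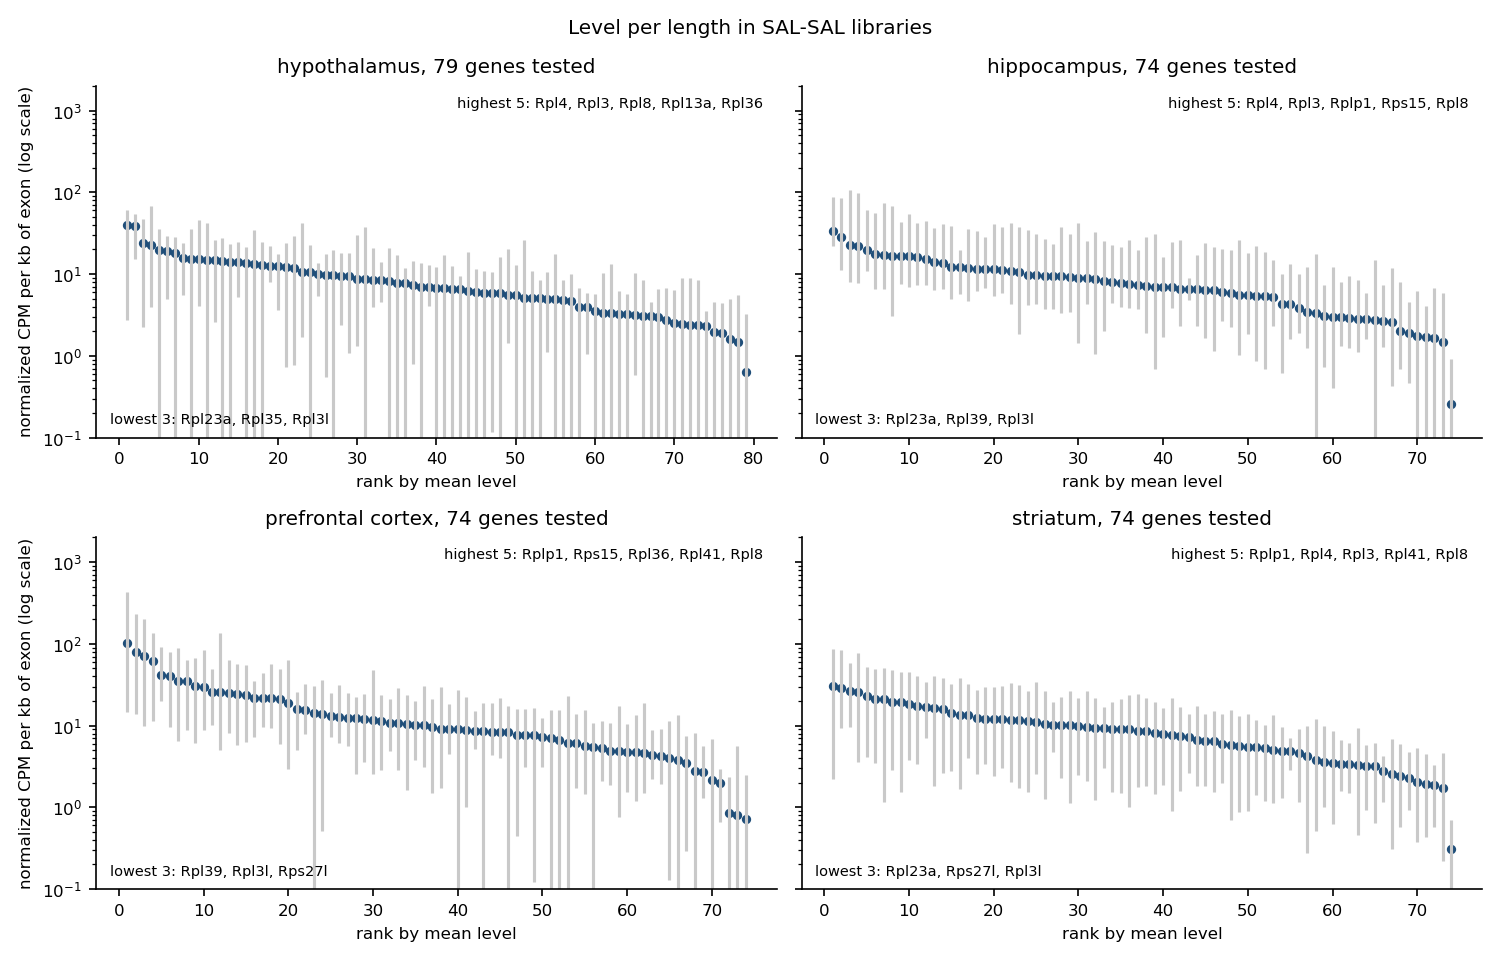
Mean level of each tested ribosomal protein gene in SAL-SAL libraries (points, normalized CPM per kb of exon, log axis) with the lowest and highest library (grey bars, which run off the lower edge where the lowest library is at 0), against its rank, in the 4 regions. The highest gene is Rpl4 at 40.3 in the hypothalamus and Rplp1 at 103 in the PFC (67.0 without library 5-1).

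At the low end per kilobase of exon stood paralogs together with core genes. Rpl3l, the paralog of Rpl3 that is known from striated muscle, was the lowest tested gene in the hypothalamus (0.633), the hippocampus (0.26) and the striatum (0.307). In the PFC it stood at 0.797, just above Rps27l, a p53-responsive paralog of Rps27, at 0.719. Core large-subunit genes lay beside them: Rpl23a had 1.59 and Rpl35 1.48 in the hypothalamus, below Rps27l at 2.35, with Rpl24 at 2.40, and in the hippocampus Rpl39 had 1.46 and Rpl23a 1.66, below Rps27l at 1.69. Other genes on the opposite strand overlap 71.2% of the exonic bases of Rpl35 and 59.7% of those of Rpl23a, and a gene on the same strand 47.0% of those of Rpl24. The total count of Rpl3l, 227 in the hippocampus, was the lowest of any tested member in any region, so no member lay close above the threshold of 10. Just below it, Rpl39l, known from testis, had totals of 10 in the striatum and 4 in the PFC and was listed at 0 in the other 2 regions, and Rpl24 had totals of 1 to 2 outside the hypothalamus. Rpl10l, also known from testis, was listed at 0 in every region. Outside these, counts were ample: 71 to 73 of the 81 genes had totals over 1000 in each region.

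At least 80% of the tested members lay on the same side of their regional median in 21 of 51 libraries of the hypothalamus, in 25 of 55 and 24 of 48 for hippocampus and PFC, and in 38 of 54 for the striatum. Of all tested genes with a median above 0, as many lay on 1 side in 2 hypothalamic libraries and in 0 of the other regions. TMM scaling centres each library on the bulk of its genes. That holds the count over all genes low, so it gives no background for the members. Hypothalamic 1-4 and hippocampal 13-1 are among those counted and had 7 and 18 members detected. The sum over the 81 genes ranged from 485 to 3002 normalized CPM in the hypothalamus (the lower end is library 1-4 with 9 counts of these genes, and the next was 648), 450 to 5686 in the hippocampus, 275 to 3176 in the striatum and 547 to 6494 in PFC. Libraries above 3 times the median sum of their region numbered 0 in the hypothalamus, 2 in the hippocampus, 6 in the striatum and 1 in PFC. In the hippocampus these were MOR-SAL 7-2 at 5686, with 73 of 74 members above their median, and SAL-SAL 1-1 at 3795, with 74 of 74. In the PFC it was MOR-LPS 8-1 at 6494. In the striatum they were SAL-SAL 5-3, 4-3 and 3-0, MOR-SAL 17-2 and MOR-LPS 14-2 and 16-2, between 2337 and 3176.

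Other features moved with these 9 libraries. Mitochondrially encoded RNA, which is not nuclear, took 1.29%, 2.09%, 2.57% and 1.15% of the counts in striatal libraries 14-2, 5-3, 4-3 and 16-2 and 1.18% in PFC library 8-1. It stayed at 0.499% and 0.396% in striatal 17-2 and 3-0 and at 0.0922% and 0.119% in hippocampal 7-2 and 1-1. The 4 striatal libraries above 1% had summed levels of 2337 to 3176, and the 50 others 275 to 2949 with a median of 683. Across the 9 libraries the nuclear-encoded subunits of oxidative phosphorylation were at 2.27 to 3.77 times the median of their region, the TOP-type translation genes (elongation and initiation factors and other genes known for the same motif, such as Npm1 and Hnrnpa1) at 1.57 to 2.59 times, and mitochondrial ribosomal proteins at 1.29 to 2.64 times. Genes of the mTOR pathway were at 0.722 to 0.918 times and neuronal markers at 0.576 to 1.09 times. Markers of non-neuronal cells were often high in them. Microglial markers were at 2.38 to 18.3 times the median in all but hippocampal 1-1 (0.871), and oligodendrocyte markers at 1.39 to 10.6 times in all but hippocampal 7-2 (0.773), with the highest value of both in striatal 16-2. Astrocyte markers ran from 0.723 to 5.69 times, choroid plexus markers from 0.475 to 5.35 and endothelial markers from 0.324 to 1.00. The part of mitochondrial RNA, of the marker genes or of these libraries in the comparisons below was not tested.

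**Figure D2:**
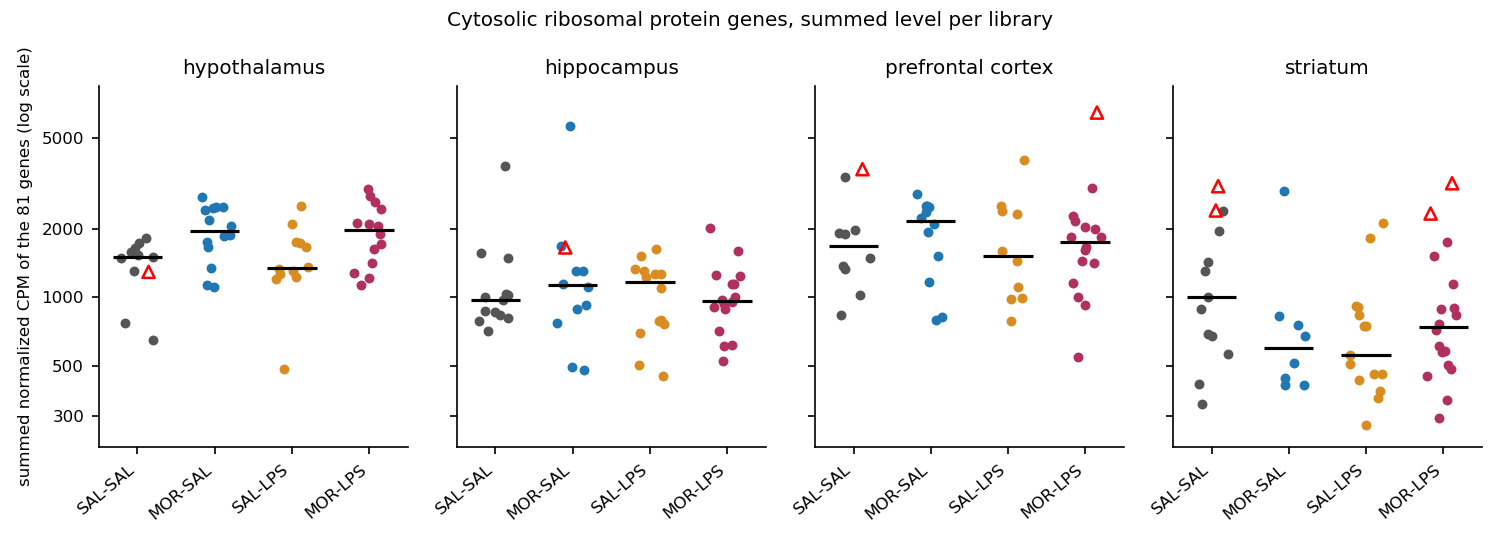
Summed level of the 81 ribosomal protein genes (normalized CPM, log axis) in each library by region and condition, with group medians as black lines and libraries with over 1% mitochondrial counts as red open triangles. In the hypothalamus the MOR-SAL and MOR-LPS medians (1967 and 1978) lie above those of SAL-SAL and SAL-LPS (1511 and 1349), and in the striatum all 4 triangles lie at 2337 or above.

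In the hypothalamus, where the study asked whether perinatal morphine left a lasting mark on adult neurons, 2 ribosomal protein genes rose in MOR-SAL against SAL-SAL and most others had a positive log2FC that did not pass the test. Both calls were lost without the libraries of label number 10, without those that nearly lacked hypothalamus markers, and with label number as a random effect. The fitted value was above 0 for 73 of 79 tested genes, with a median of 0.52, against 0.07 over all genes. After Benjamini-Hochberg adjustment over all genes in edgeR, 2 of the 79 rose, Rps15a and Rpl3, and none fell, where 0.27% of all genes tested were called higher, 1.17% lower and 1.44% in either direction. At an unadjusted p under 0.05 there were 24 higher and 1 lower, which is 25 of 79 against 17.3% of all genes. Large-subunit and small-subunit genes had similar medians, 0.49 over 47 and 0.59 over 32.

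Rps15a (chr7:118104372-118116188, minus strand), a small-subunit gene, had a lowest, median and highest level of 0, 34 and 53.5 normalized CPM in the 11 SAL-SAL libraries and of 33.1, 56.9 and 75.9 in the 14 MOR-SAL libraries. The 0 was SAL-SAL library 4-3, with 160755 counts in total. The groups overlapped, with 9 of 14 MOR-SAL libraries above the highest SAL-SAL library. Its log2FC was 0.90 (SE 0.23, adjusted p = 0.0277), and 0.75 (adjusted p = 0.131) without label number 10. After LPS it read 0, 36.1 and 63.4 in SAL-LPS and 19.5, 39.6 and 54.7 in MOR-LPS, so that the MOR-LPS median lay near the medians of both saline-exposed groups. The 0 in SAL-LPS was library 1-4, with 7673 counts in total.

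Rpl3 (chr15:80077791-80091868, minus strand) had 48.7, 141 and 170 normalized CPM in SAL-SAL and 119, 208 and 270 in MOR-SAL, again with 9 of 14 libraries above the highest SAL-SAL library. Its log2FC was 0.71 (SE 0.19, adjusted p = 0.0371), and 0.55 (adjusted p = 0.166) without label number 10. In SAL-LPS it read 101, 122 and 263 and in MOR-LPS 86.1, 181 and 265. The gene with the next smallest adjusted p, Rplp1, missed the threshold at a log2FC of 1.61 (adjusted p = 0.0542), with 0, 5.63 and 17.3 in SAL-SAL and 4.41, 18.2 and 33.5 in MOR-SAL.

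The defining members Rplp0 and Rps6 did not pass the test. Rplp0 had 0, 17.7 and 37.4 normalized CPM in SAL-SAL and 17.9, 25.4 and 43.7 in MOR-SAL, with a log2FC of 0.66 (adjusted p = 0.216). The 0 was library 4-3, with 160755 counts in total. Rps6, the substrate of the S6 kinases, had 0, 11.4 and 18.4 in SAL-SAL and 9.43, 14.8 and 29.8 in MOR-SAL, with a log2FC of 0.72 (adjusted p = 0.353). Without label number 10 the SAL-SAL medians were 25.4 for Rplp0 and 13.0 for Rps6. For each gene 7 of 14 MOR-SAL libraries then lay above that median, against 14 and 10 with all libraries. Among the other named members, log2FC was 0.94 for Rps4x, 0.93 for Rps27a, which is made as a fusion with ubiquitin, 0.74 for Rplp2, 0.61 for Rps19, one of the genes mutated in Diamond-Blackfan anaemia, and 0.41 for Rpsa, the laminin receptor precursor. It was 0.36 for Rpl11 and 0.22 for Rpl5, the pair that binds the smallest ribosomal RNA of the large subunit and MDM2. The paralogs read 0.67 (Rps27l) and -1.20 (Rpl3l), and the pseudogene Rps4l 0.32. None of these passed the test. The lowest value of all belonged to Rpl24, at -2.12 (adjusted p = 0.166), with medians of 2.32 normalized CPM in SAL-SAL and 0.348 in MOR-SAL, and counts of 0 in 2 of 11 and 5 of 14 libraries.

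**Figure D3:**
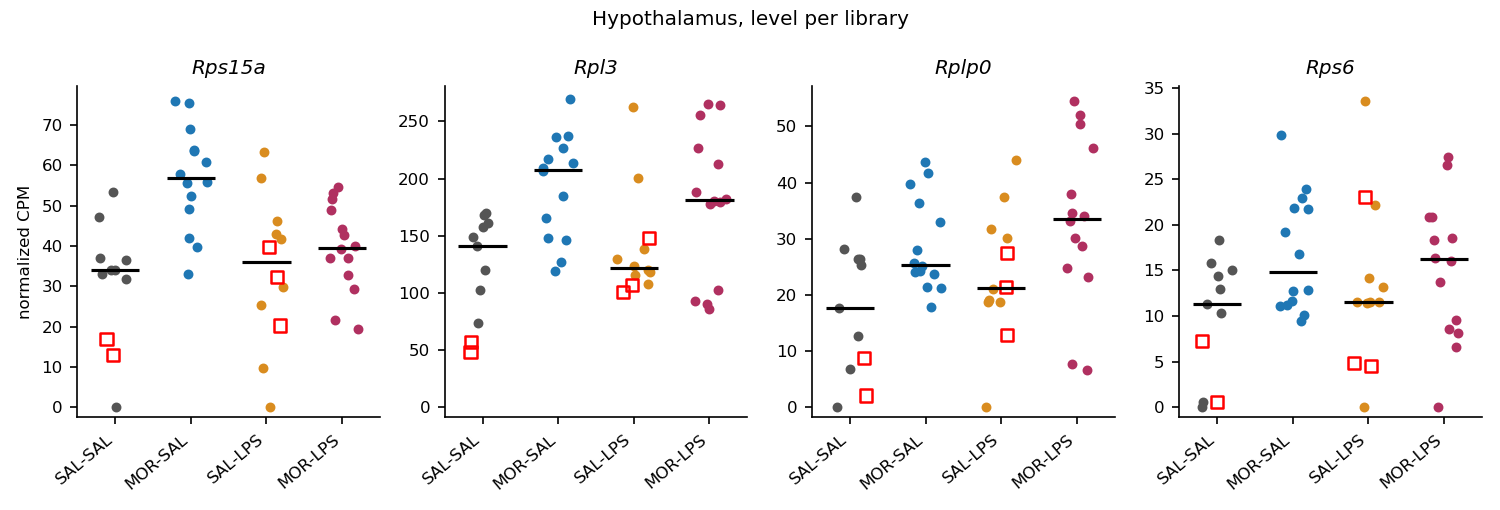
Level of Rps15a, Rpl3, Rplp0 and Rps6 (normalized CPM) in each hypothalamic library by condition, with group medians as black lines and libraries of label number 10 as red open squares. For Rps15a and Rpl3 the MOR-SAL points reach 75.9 and 270, above every SAL-SAL point, and the 2 SAL-SAL squares lie below the SAL-SAL median in all 4 genes.

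Genes with related roles were compared through lists. Of 17 TOP-type translation genes 15 had a log2FC above 0 with a median of 0.48, and 2 rose: Hnrnpa1 by 0.73 (adjusted p = 0.0154) and Eef1g, an elongation factor subunit, by 0.72 (adjusted p = 0.0195). Of 5 tested ribosomal proteins whose symbols fall outside the rule, 4 were above 0 with a median of 0.49 and none was called. Of 144 ribosomal protein pseudogenes 94 were above 0 with a median of 0.56, and 2 were called higher, Rps4x-ps and Rpl30-ps2. The lists of genes that make or regulate ribosomes had medians nearer 0. For 30 genes of ribosome assembly and RNA polymerase I the median was 0.13 with 23 above 0, and for 15 genes of mTOR and TOP regulation it was -0.11 with 5 above 0. No gene of either list was called. Mitochondrial ribosomal proteins had a median of 0.11 (47 of 76 above 0) and oxidative phosphorylation subunits 0.26 (68 of 77), none called. Starts with a C and 4 or more pyrimidines (12 members, median 0.51) and other starts (46 members, median 0.48) had similar log2FC, as had members with a snoRNA gene inside (29, median 0.47) and without (50, median 0.54).

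Markers of other tissue moved with this comparison. All 4 thalamus markers were lower in MOR-SAL, 3 of them called (Prkcd, Rora and Tnnt1), with a median log2FC of -2.98. All 6 oligodendrocyte markers were below 0, with a median of -1.64 and 1 called (Mobp), and 3 of 4 choroid plexus markers, with a median of -3.06 and 2 called (Ttr and Folr1). Astrocyte markers had a median of -1.06 and endothelial markers of -0.52, all below 0, and microglial markers -0.05, none called. Of 7 hypothalamus markers 5 were above 0, with a median of 0.84, none called, and the 6 neuronal markers had a median of 0.10. The summed thalamus level was highest in SAL-SAL 10-1 (2717 normalized CPM), 10-3 (1685), 5-3 (1176), 3-2 (830) and 11-1 (618), and its median over the 46 libraries of other label numbers was 131. In 10-1 and 10-3 the summed ribosomal protein level was 768 and 648, and 6 of 79 members lay above the regional median in each.

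The calls depended on which libraries were in the fit. Without the libraries of label number 10 (the first number of the replicate label), 0 of 79 were called, 70 of 79 stayed above 0 and the median was 0.42. The count was also 0 without label number 15 or 16, and 1 without 3, 4, 7, 12, 13 or 18, while it was 4 without number 6 and 5 without number 9. Over 17 such refits Rps15a was called in 14 and Rpl3 in 7. With label number as a random effect none was called (adjusted p = 0.168 for Rps15a and 0.197 for Rpl3), and DESeq2 called 5. Without the 11 libraries under 10% of the median of hypothalamus markers 0 were called (Rps15a 0.59, adjusted p = 0.165, and Rpl3 0.41, adjusted p = 0.227), 65 of 79 lay above 0 and the median was 0.31. The summed level without label number 10 ran from 1296 to 1816 with a median of 1531 in the 9 remaining SAL-SAL libraries, against 1108 to 2753 with a median of 1967 in MOR-SAL. The part of these libraries in the difference was not tested.

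The other hypothalamic comparisons gave no call in edgeR, and DESeq2 gave none. After LPS, MOR-LPS against SAL-LPS had 67 of 79 members above 0 with a median of 0.31 (all genes 0.0091), and 3 higher and 1 lower at an unadjusted p under 0.05, against 13.9% of all genes in either direction, and 1.03% of all genes were called, 0.447% higher. The smallest adjusted p belonged to Rpl9 (0.55, SE 0.20, adjusted p = 0.137), followed by Rpl13 (0.58) and Rps27 (0.84). The LPS response of saline-exposed mice, SAL-LPS against SAL-SAL, had 59 of 79 above 0 with a median of 0.20 (0.246% of genes called, 0.0693% higher, and 2 members higher at an unadjusted p under 0.05, against 14% of all genes in either direction), led by Rps18 at 0.60, Rpl28 at 0.81 and Rps16 at 0.90. In this comparison all 4 thalamus markers (median -2.69, Rora called at -1.51), all 4 choroid plexus markers (median -2.53, Ttr called at -5.88) and all 13 tested mitochondrially encoded genes (median -2.01, mt-Nd1 called at -2.50) were below 0, as were all 6 oligodendrocyte markers (median -0.85, none called). Their part in the result was not tested. Without the libraries that nearly lacked hypothalamus markers, 44 of 79 members lay above 0 and the median was 0.04. The LPS response of morphine-exposed mice, MOR-LPS against MOR-SAL, had 32 of 79 above 0 with a median of -0.08, although 6.27% of all genes were called there (1 member higher and 2 lower at an unadjusted p under 0.05, against 20.5% of all genes). Rps15a read -0.55 (adjusted p = 0.0891), Rps20 -0.71 (adjusted p = 0.105) and Rpl41 0.61 (adjusted p = 0.188). In that comparison 5 oligodendrocyte, 4 astrocyte and 3 microglial markers rose, and all 3 cortical excitatory markers.

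The difference between these responses, the interaction, had 22 of 79 above 0 with a median of -0.27, and 3.8% of all genes were called, 2.2% higher and 1.6% lower (1 member higher and 3 lower at an unadjusted p under 0.05, against 15.6% of all genes). Markers of other cells and tissue also moved in it: 5 of 6 oligodendrocyte markers were called higher (median 2.49), with 2 of 5 astrocyte (Aldh1l1 and Gja1), 3 of 4 thalamus (Prkcd, Rora and Tnnt1), 1 of 6 microglial (Csf1r) and 1 of 4 choroid plexus markers (Ttr), while the hypothalamus marker Pomc and the striatum marker Adora2a were called lower. Their part in the shift of the members was not tested. Among the members it was led by Rps15a at -0.83 (SE 0.31, adjusted p = 0.135), Rps20 at -1.07 and Rplp1 at -1.35. These comparisons share their libraries. MOR-SAL enters the exposure contrast at baseline, the LPS response after morphine and the interaction. SAL-SAL enters the exposure contrast at baseline, the LPS response without morphine and the interaction. For Rps15a the values side by side were 0.90 for exposure at baseline and -0.55 for LPS after morphine. The medians of the members kept their sign under every alternative in the exposure contrasts and in the LPS response without morphine. The interaction median ran from -0.40 to 0.06, the highest without the libraries that nearly lacked hypothalamus markers (43 of 79 above 0). In the LPS response after morphine the median ran from -0.16 to 0.09.

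**Figure D4:**
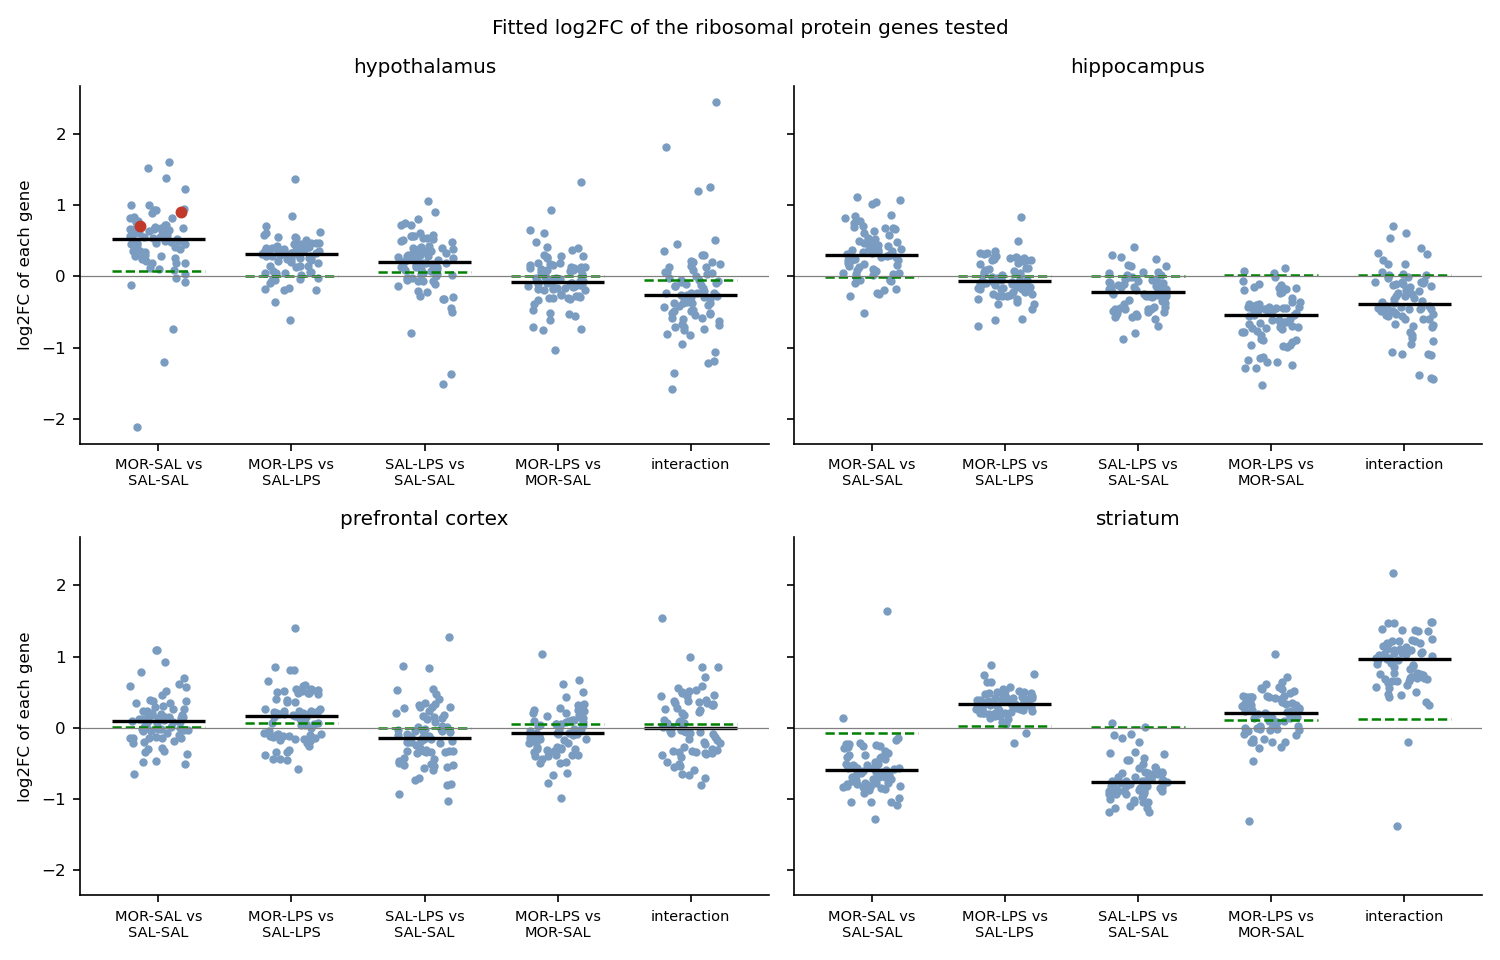
Fitted log2FC of each tested ribosomal protein gene (points) in the 5 comparisons of each region, with the median of the members as a black line, the median of all genes tested as a green dashed line and the 2 called genes as red points. The members' medians depart most from those of all genes in the striatum, at -0.77 for SAL-LPS vs SAL-SAL and 0.97 for the interaction, where none was called.

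In the hippocampus no ribosomal protein gene passed the test in edgeR in any comparison. The exposure contrast at baseline had 62 of 74 members above 0 with a median of 0.31 (all genes -0.01), 4 higher at an unadjusted p under 0.05 against 10.3% of all genes in either direction, and 0% of genes called. LPS after morphine ran the other way, with 71 of 74 below 0, a median of -0.54 (all genes 0.02) and 23 lower and 0 higher at an unadjusted p under 0.05, against 14.3% of all genes in either direction, and 0.467% of all genes were called. The same genes led both: Rpl5 read 1.02 and -1.29 (SE 0.35, adjusted p = 0.0582), Rplp1 1.05 and -1.52 (adjusted p = 0.0756), and Rps14 1.07 and -1.28 (adjusted p = 0.0894), and both comparisons use the MOR-SAL libraries. DESeq2 called 1 member in the LPS comparison, Rpl5, lower.

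Rpl5 had 10.9, 29.4 and 373 normalized CPM in the 12 MOR-SAL libraries and 11.0, 21.8 and 49.6 in the 16 MOR-LPS libraries. The value of 373 belonged to 7-2, and without label number 7 the highest MOR-SAL value was 56.5 and the median 24.4. Rplp1 reached 146 and Rps14 244 in the same library. Without the 2 hippocampal libraries above 3 times the median sum, 26 of 74 members were above 0 in the LPS response after morphine and the median was -0.09, and the exposure median was 0.10 with 53 above 0. Without label number 7 the exposure median was -0.18, with 14 above 0, and the LPS median was -0.09, with 25 above 0. Beside this comparison, oligodendrocyte (6 of 6), astrocyte (4 of 4) and microglial (5 of 5) markers were all above 0, with medians of 0.70, 0.93 and 1.23, none called, and of 74 oxidative phosphorylation subunits 64 were below 0 with 1 called lower (Ndufa5). Of 71 mitochondrial ribosomal proteins 53 were below 0 with 2 called lower (Mrpl34 and Mrps12), and of 85 ribosomal protein pseudogenes 43 were above 0 with 1 called lower (Rpl21-ps6). The nuclear-retained RNA Neat1 was called higher (1.95), 1 of 6 of its list.

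The LPS response of saline-exposed mice in the hippocampus had 12 of 74 members above 0 with a median of -0.22, 2 lower at an unadjusted p under 0.05 against 17.5% of all genes, and 2.55% of all genes called, 1.33% higher and 1.22% lower. Rpl15, a large-subunit gene, led it at -0.88 (SE 0.29, adjusted p = 0.0714), with 10.9, 14.8 and 55.6 normalized CPM in SAL-SAL and 5.67, 8.67 and 17.4 in SAL-LPS, and it was called without label number 9 (-1.11, adjusted p = 0.0482). Rpl21 read -0.80 and Rpl19 -0.57. Of the 17 TOP-type genes 15 were below 0 with a median of -0.25, and Eef2, the translocation factor of elongation, fell by 0.75 (adjusted p = 0.0286). Of 15 genes of mTOR and TOP regulation 7 were above 0, and Tsc1, an inhibitor of mTOR signalling, rose by 0.49 (adjusted p = 0.0268). Of 85 ribosomal protein pseudogenes 36 were above 0 and 3 were called lower. The median of the members changed sign to 0.10 without the libraries above 3 times the median sum, of which SAL-SAL 1-1 is in this contrast. Exposure after LPS had 29 of 74 above 0 with a median of -0.07 (2.73% of all genes called, 1.72% higher and 1.01% lower, and 1 member lower at an unadjusted p under 0.05 against 17% of all genes), led by Rpl38 at -0.70 (adjusted p = 0.17), with Rpl41 at -0.60 and Rpl23a at 0.84. The interaction had 14 of 74 above 0 with a median of -0.39 (2.35% of all genes called, 1.32% higher, and 4 members lower at an unadjusted p under 0.05 against 12.8% of all genes), led by Rpl41 at -1.44, Rps14 at -1.43 and Rpl5 at -1.11 (adjusted p from 0.168 to 0.305), and its median ran from -0.59 to 0.06 over the alternatives, with the highest value without label number 7.

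In the PFC no member was called in edgeR or DESeq2 in any of the 5 comparisons, where 0%, 0.0046%, 0%, 0.0184% and 1.78% of all genes were called in the order exposure at baseline, exposure after LPS, LPS without morphine, LPS after morphine and interaction. In that order 45, 48, 25, 31 and 37 of 74 members were above 0, the medians were 0.10, 0.17, -0.15, -0.07 and -0.0013, and 1, 0, 3, 0 and 0 members had an unadjusted p under 0.05, against 10.1%, 13%, 12.7%, 13.2% and 11.5% of all genes. Rpl22, a large-subunit gene, had the smallest p at baseline, with 6.50, 11.4 and 25.5 normalized CPM in SAL-SAL and 16.2, 21.1 and 51.7 in MOR-SAL and a log2FC of 0.92 (SE 0.35, adjusted p = 0.249), followed by Rps24 at -0.65 and Rpl4 at -0.46. In exposure after LPS the smallest p belonged to Rps20 (0.85), Rps12 (0.81) and Rpl27a (-0.58). After LPS without morphine, Rpl31 read 0.84, Rps13 -0.93 and Rps24 -0.73 (adjusted p from 0.286 to 0.393). After LPS with morphine Rpsa read -0.66 and Rps15 -0.63, and in the interaction Rpl31 read -0.80, Rps20 0.99 and Rps13 0.85, with adjusted p of 0.467 or more. Over the alternatives the 5 medians ran from -0.08 to 0.34, from -0.05 to 0.32, from -0.26 to 0.16, from -0.52 to 0.13 and from -0.45 to 0.21, so each had both signs. Without label number 8, whose MOR-LPS library 8-1 had the highest sum, the median was -0.05 for exposure after LPS (30 of 74 above 0), -0.24 for LPS after morphine (16) and -0.16 for the interaction (25).

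In the striatum nearly all members had the same sign in several comparisons, and none passed the test in edgeR or DESeq2. In SAL-LPS against SAL-SAL 72 of 74 were below 0, with a median of -0.77 (all genes 0.0059) and 30 lower and 0 higher at an unadjusted p under 0.05, where 0.0128% of all genes were called and 11.7% had an unadjusted p under 0.05. Rps10, a small-subunit gene, read 2.71, 8.27 and 20.8 normalized CPM in the 13 SAL-SAL libraries and 2.34, 5.38 and 10.5 in the 15 SAL-LPS libraries (log2FC -0.86, SE 0.28, adjusted p = 0.158). Rpl38 had 3.77, 7.86 and 18.5 in SAL-SAL and 3.13, 5.20 and 9.07 in SAL-LPS (-0.78, adjusted p = 0.182), with 14 of 15 SAL-LPS libraries below the SAL-SAL median. Rps24 read -0.63 (adjusted p = 0.19). The groups overlapped for each of these genes. The markers Rplp0, Rps6 and Rpl3 read -0.84, -0.64 and -0.42.

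MOR-SAL against SAL-SAL in the striatum had 2 of 74 above 0 with a median of -0.59 (all genes -0.07), with 0% of all genes called and 1 member higher and 3 lower at an unadjusted p under 0.05, against 11.5% of all genes. Rpl39, a large-subunit gene, read -1.28 and Rps24 -0.59, and Rpl3l read 1.64 (adjusted p = 0.312). In the comparisons with MOR-LPS most members lay above 0. MOR-LPS against SAL-LPS had 72 of 74 above 0 with a median of 0.33 (0% called), and MOR-LPS against MOR-SAL 55 of 74 with a median of 0.20 (all genes 0.11, 1.39% called), with 1 member at an unadjusted p under 0.05 in each, against 11.2% and 17.8% of all genes. In the first it was Rpl39 (0.89), followed by Rps26 (0.64) and Rpl32 (0.74). In the second it was Rpl3l, which lay below 0 (-1.31), followed by Rpl39 (1.04) and Rpl3 (0.64). In MOR-LPS against MOR-SAL 3 of 4 astrocyte markers (Aldh1l1 2.49, Aqp4 2.09 and Slc1a3 1.58) and 1 of 5 microglial markers (C1qa 4.84) rose, and all 6 oligodendrocyte markers were above 0 with a median of 1.21, none called. Their part in the result was not tested. The interaction had 72 of 74 above 0 with a median of 0.97 (all genes 0.12) and 13 higher at an unadjusted p under 0.05, against 14.8% of all genes in either direction, and 0.00854% of all genes were called. It was led by Rpl39 at 2.17 (SE 0.69, adjusted p = 0.113), Rps23 at 1.47 and Rpl18 at 1.37. Rpl39 had medians of 1.93 normalized CPM in SAL-SAL, 1.07 in MOR-SAL, 1.04 in SAL-LPS and 2.18 in MOR-LPS. All of these contrasts share groups, and SAL-SAL, which enters 3 of the 5, held 3 of the 6 striatal libraries above 3 times the median sum.

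These medians moved without the libraries that stood apart. Without the 4 libraries above 1% mitochondrial counts the medians were -0.40 for SAL-LPS against SAL-SAL (6 of 74 above 0), -0.31 for MOR-SAL against SAL-SAL (14), -0.03 for MOR-LPS against SAL-LPS (29), -0.11 for MOR-LPS against MOR-SAL (26) and 0.25 for the interaction (57). Without the 6 libraries above 3 times the median sum they were -0.25, -0.70, 0.41 and 0.65 for all but MOR-LPS against SAL-LPS in that order, and in that comparison 36 of 74 members were above 0. The shift of SAL-LPS against SAL-SAL and of the interaction was thus smaller without either set of libraries, and that of MOR-SAL against SAL-SAL was larger without the second. Leaving out the libraries of label number 17, which include MOR-SAL 17-2, moved the medians away from 0, to -1.10 for MOR-SAL against SAL-SAL, 0.82 for MOR-LPS against MOR-SAL and 1.52 for the interaction. Over all alternatives the median ran from -1.10 to -0.31, from -0.11 to 0.82 and from 0.25 to 1.52 in these comparisons, from -0.92 to -0.25 for SAL-LPS against SAL-SAL and from -0.03 to 0.61 for MOR-LPS against SAL-LPS. In SAL-LPS against SAL-SAL, all 15 mitochondrially encoded genes were also below 0, with a median of -2.58, and 67 of 75 oxidative phosphorylation subunits, with a median of -0.51. Among the 71 mitochondrial ribosomal proteins 60 were below 0 with a median of -0.29, and among the 17 TOP-type genes 16 with a median of -0.38, and none of the 4 lists had a called gene. The oligodendrocyte markers had a median of -0.71, all 6 below 0, the 4 striatum markers -0.06, and the mTOR list 0.0036.

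Regions were compared in SAL-SAL libraries over the 74 members tested in all 4 regions, with 19478 genes in the fit. These libraries came from 15 animals, 4 of them with all 4 regions. The hypothalamus and the PFC were not compared directly. In the hippocampus against the PFC 16 of 74 members fell and none rose, where 7.72% of all genes were called lower and 13.6% in either direction, and 7 of 74 were above 0 with a median of -0.79 (all genes 0.04). In the striatum against the PFC 9 fell and none rose (6.21% of all genes called lower, 13.1% in either direction), with 9 of 74 above 0 and a median of -0.45. Between striatum and hippocampus none was called in edgeR or DESeq2, where 9.26% of all genes were, and the median was 0.26 with 58 above 0. There Rpl27a had the smallest p, at 0.81 (adjusted p = 0.193), followed by Rpl11 at 0.63 and Rps27a at 0.84, and the median ran from -0.02 to 0.36 over the alternatives.

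Rpsa led both contrasts with the PFC, at -2.19 (SE 0.38, adjusted p = 7.1e-05) in the hippocampus and -1.85 (SE 0.37, adjusted p = 0.000737) in the striatum. Its lowest, median and highest normalized CPM were 22.4, 75.8 and 302 in the PFC, 13.8, 24.5 and 78.2 in the hippocampus, 4.36, 21.3 and 88.6 in the striatum and 10.0, 37.9 and 46.6 in the hypothalamus. Rplp1 had 7.90, 29.5 and 227 in the PFC and 4.10, 7.15 and 52.0 in the hippocampus (log2FC -2.38, SE 0.53, adjusted p = 0.00162). Rps15 and Rpl36 read -2.03 and -2.36 in the hippocampus and -1.95 and -1.88 in the striatum. In the hippocampus Rpl41 fell by 2.07, and in the striatum Rps19 fell by 1.56 and Rplp1 by 1.76. The ranges of the 4 regions overlapped for each of these genes. The marker Rplp0 had medians of 20.3 in the PFC, 17.2 in the hippocampus, 11.4 in the striatum and 14.4 in the hypothalamus. Of the mitochondrial ribosomal proteins 37 of 71 were above 0 in the hippocampus against the PFC with a median of 0.0092 and 3 called higher, while of 74 oxidative phosphorylation subunits 8 fell, with a median of -0.27.

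The number of calls depended on the libraries and on the pairing of regions by animal. With the animal (replicate label) as a block 6 of 74 members (8.11%) were called lower in the hippocampus against 3.59% of all genes, and in the striatum only Rpsa was (1.35% against 3.48%). Rps15, Rpl36, Rps19 and Rplp1 lost their call in the striatum under the block. Without the libraries above 3 times their regional median sum the numbers were 36 (8.42% of all genes called lower) and 25 (6.93%). They were 10 (6.32%) and 14 (6.17%) without those above 1% mitochondrial counts. Without the libraries under 10% of the median of their region's markers they were 11 (8.07%) and 5 (8.53%). In that fit Rplp1 read -1.86 in the hippocampus, still called, and -1.19 in the striatum, no longer called (adjusted p = 0.111). The medians kept their sign in both contrasts, from -1.08 to -0.48 and from -0.90 to -0.20.

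The hypothalamus was set against the mean of the other regions, although its table differs in the genes that have counts. In this contrast 44.7% of all genes were called, and 19 of 74 members, 2 higher against 21.3% of all genes and 17 lower against 23.4%. The share of members called lower was therefore near that of all genes in this fit. With library size as the only scaling, 4 were called higher (29.6% of all genes) and 4 lower. That was 5.41% of members called lower against 17.4% of all genes. Rpl22 rose by 0.95 (SE 0.18, adjusted p = 1.1e-05) and Rps20 by 0.59 (adjusted p = 0.0433), with medians for Rpl22 of 30.7 normalized CPM in the hypothalamus against 18.9, 12.3 and 14.7 in the hippocampus, PFC and striatum. Rplp1 fell by 2.08 (adjusted p = 0.000794), Rps16 by 1.66, Rpl41 by 1.25, Rpl32 by 1.24, Rpl26 by 1.11 and Rpl38 by 0.98. With the animal as a block 1 was called higher (16.9% of all genes) and 11 lower (20.9%), and Rps20 lost its call (adjusted p = 0.0676). Without the libraries low in markers of their region, 3 were called higher (20% of all genes) and 9 lower (23.2%).

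**Figure D5:**
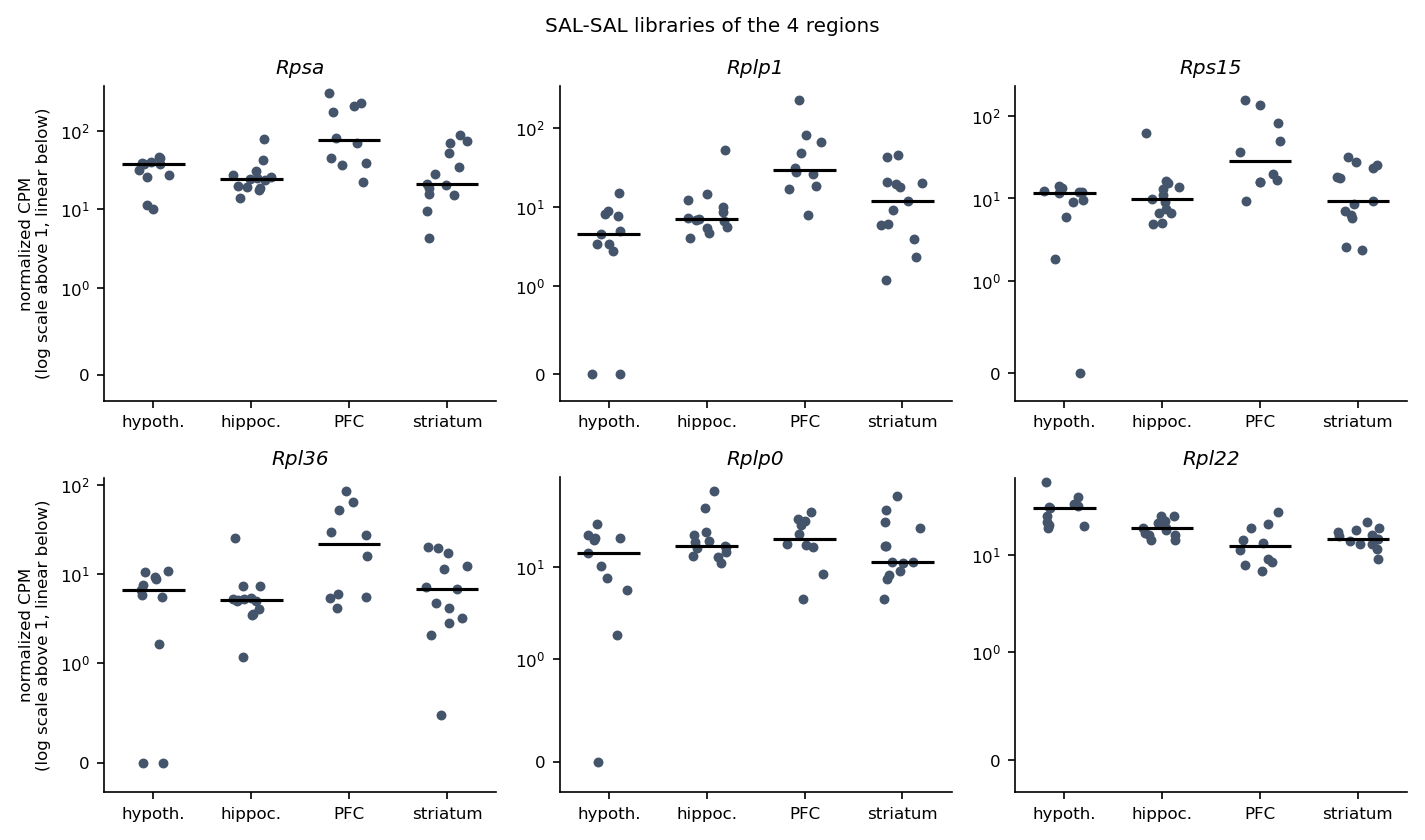
Level of 6 ribosomal protein genes (normalized CPM, log above 1 and linear below) in each SAL-SAL library of the 4 regions, with medians as black lines. Rpsa, Rplp1, Rps15 and Rpl36 have their highest medians in the PFC (75.8 for Rpsa), Rplp0 medians run from 11.4 to 20.3, and Rpl22 is highest in the hypothalamus at 30.7.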

How the data were processed

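The authors sorted about 5000 NeuN+ nuclei per library, made libraries by a modified Smart-seq3 protocol with tagmentation, trimmed reads with Trim Galore 0.6.7, aligned them to mm10 with STAR 2.7.10a, counted reads per gene with STAR (checked against HTSeq 0.12.4) and deposited raw counts per gene. The strand setting of the counting is not given in the sources used here, so genes that overlap another gene are uncertain. No batch or date is given in the labels. The deposited CPM tables, scaled by the authors to the non-mitochondrial total, were not used.

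In each region, genes with a total count above 10 entered an edgeR 4.0.16 fit after TMM scaling (R 4.3.3, quasi-likelihood test) with the 4 conditions and sex. P-values were adjusted by Benjamini-Hochberg over all genes tested and called under 0.05. Every fit ran on the whole table, and a fit of region and sex on SAL-SAL libraries compared regions. Alternatives used DESeq2 1.42.0 and limma 3.58.1 (voom, first number of the replicate label as a random effect), other scalings and filters, omission of the libraries of each first number and of libraries of low depth, and blocks of first number or of animal (same replicate label). Leaving out libraries above 1% mitochondrial counts or above 3 times the regional median sum, or under 10% of the regional median of the markers of their own region was chosen after seeing the data. Scripts were tested on simulated data.

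The 81 members and the gene lists were chosen with earlier results of these data known. Named were Rplp0, Rps6 and Rpl3, 8 further members and 5 paralogs or copies fixed by name, the 5 highest and 5 lowest members per kilobase in each region (of the lowest, the text gives those that matter and not all), and in each comparison up to 6 called members per direction or, with none called, the 3 with the smallest p. Library counts, from 7673 to 92945090 in total, set the precision, and a count of 0 limits only that library. Positions are from GENCODE M21 (mm10), copies from BLAST 2.17.0. The H3K27ac data are not analysed here. Some results that the naming rule selects are not reported here.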

Additional observations from a re-analysis of the deposited data

Results flagged for a closer look

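The summed level of the 81 ribosomal protein genes in the striatal MOR-SAL library 17-2 (2949 normalized CPM) lay far from the other 7 libraries of its group, by Dixon's test at the 95% level. The next highest library of the group was at 832. The test was made in the 3 groups of 4 to 10 libraries, and chance gives such a value in about 1 of 20 groups. In that library 71 of 74 members lay above their regional median, and mitochondrially encoded genes took 0.499% of the counts.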

How the results depend on the processing

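Counts of called members stayed within 1.5 times the value reported in 254 cases and moved further in 25. The 254 include every case with 0 calls in both fits, and most comparisons had 0 calls as reported. Where members were called, many counts moved further, as given next. In the hypothalamus at baseline, where 2 were called, the count was 5 with DESeq2 or with library size as the only scaling, 1 with filterByExpr or median-of-ratios size factors, 0 with label number (the first number of the replicate label) as a random effect, 0 without the libraries under 10% of the median of their region's markers, and 0 to 5 when the libraries of each number were left out. Library size alone gave 1 call (Rpl9) for exposure after LPS there. In the hippocampus DESeq2 gave 1 call for LPS after morphine, and leaving out label numbers gave up to 1 for LPS without morphine. In the hippocampus against the PFC, where 16 were called, the count was 6 with the animal as a block, 6 with library size alone, and 10, 36 and 11 without the libraries above 1% mitochondrial counts, above 3 times the median sum and low in the markers of their region. In the striatum against the PFC (9 called) it was 1, 2, 14, 25 and 5 in that order, and in the hypothalamus against the other regions (19 called) 12, 8, 11, 12 and 12. With library size alone the median of all genes moved from 0.00049 to 0.30 in that last contrast. Values of named genes kept direction and side of the threshold in 886 cases, gained a call in 3, lost it in 22 and changed sign in 2: Rpl5 at baseline in the hippocampus (-0.0075 without label number 7 and up to 1.29 without another) and Rps13 in the interaction of the PFC (-0.45 with label number as a replicate block). The labels do not say what the number stands for, so it was not read as pairing the samples. Residuals of libraries that share it correlated on average at 0.011, -0.0086, -0.0057 and 0.068 in hypothalamus, hippocampus, PFC and striatum. For libraries of different numbers the values were 0.0018, -0.0098, -0.018 and -0.019 in that order. A mean over the 5000 highest genes cannot exclude a shared origin such as a litter. As a block, possible only in LPS comparisons since each number lies within 1 exposure, it gave 0 calls, as did the fits without it, with medians of -0.16 for LPS after morphine in the hippocampus and -0.52 in the PFC. The cause of these changes was not tested. Depth limits members with few counts, such as Rpl3l.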
